A study of Homo sapiens with 8 samples.

Results

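The G2 and mitosis genes described here are 46 genes that a proliferating cell expresses as it prepares for and passes through division. They were named as a list of symbols covering CDK1 and its cyclins, the mitotic kinases, the spindle assembly checkpoint, kinetochores, kinesin motors, spindle proteins and mitotic chromatin. All 46 symbols matched a row among the 58336 gene identifiers in the count table, and all 46 were among the 15220 genes expressed highly enough to test. The lowest count of any of them in any library was 528.

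The cells were of SUM159, a human breast cancer line of the triple-negative kind, and polyadenylated RNA was sequenced from 8 libraries. ITGB4 encodes integrin beta 4, an adhesion receptor of epithelial cells. The ITGB4-high cells (n = 2) and the ITGB4-low clone 1 cells (n = 3) were both grown in dishes. Lung-recovered cells (n = 3) were ITGB4-low clone 1 cells given to mice by tail vein. Bleomycin, which breaks DNA and causes lung injury and inflammation, was delivered to these mice by the trachea. Dissociated lung suspensions were kept in dishes overnight, and tdTomato-positive (red fluorescent) cells were isolated by flow sorting the following day.

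Limits of the groups bear on every comparison below. ITGB4-low is represented by 1 clone, so what belongs to the clone and what to low ITGB4 cannot be told apart. Lung-recovered cells differ from their dish-grown source in lung passage, bleomycin, overnight culture, sorting and ITGB4 level (given below) at once. These cannot be told apart either. No cell was counted or staged: in bulk RNA, fewer cells in G2 and mitosis and less of these RNAs per cell cannot be told apart. Replicates are labelled biological, but their cultures or animals are not named, so the p-values speak only of the spread among these samples, which may be technical. All 3 comparisons share libraries and are not independent of each other.

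Library totals ran from 20.41 to 27.22 M counts. ITGB4 itself averaged 398 CPM (counts per 1e6 counts, with library sizes scaled) in ITGB4-high, 7.29 in ITGB4-low and 395 in lung-recovered libraries. Mesenchymal VIM averaged 4828, 4561 and 4377 CPM in the same order, and the epithelial cadherin gene CDH1 and the progesterone receptor gene PGR had no counts. A list of 26 lung cell markers summed to 51.5 to 59.0 CPM in ITGB4-high, 49.5 to 58.3 in ITGB4-low and 124 to 131 in lung-recovered libraries, with a count for 14, 15 and 15 of the 26 genes. Most of the difference was COL1A1, a fibroblast and mesenchymal collagen gene, at 28.1, 30.7 and 101 CPM. In the lung-recovered libraries LYZ, CD3E, CD3D, NKG7, CLDN5, SFTPA1, SCGB1A1, FOXJ1, HBB and HBA1 were at 0. The lungs were those of mice, while reads were aligned to the human build hg38. Low or absent counts of these human genes therefore do not show how many mouse lung cells were present. What part lung cells had in the results below was not tested.

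Entry into mitosis is driven by CDK1 bound to cyclin A or B and activated by CDC25 phosphatases. The Polo and Aurora kinases then build the spindle, kinesins and microtubule-binding proteins shape it, and the checkpoint holds back the anaphase-promoting complex until every kinetochore is attached. These genes are transcribed late in the cycle: in G0 and G1 they are held off by the DREAM complex, and in G2 they are turned on by B-MYB with MuvB, by FOXM1 and by NF-Y. MuvB complexes bind a promoter element called the CHR (cell cycle genes homology region), with the core TTTGAA or TTTAAA, and NF-Y binds CCAAT. Because the RNAs build up in G2 and decline after division, they are widely used as an expression measure of proliferation.

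The start regions of these genes are shown first because they carry, at letter level, the element by which the group is known. RefSeq windows (GRCh38.p14, 250 bases before to 50 after each start) were at hand for 38 of the 46 genes, as 47 windows. BUB3, HMGB2, UBE2C, FOXM1, AURKA, TTK, TPX2 and RACGAP1 had none in the table. The pieces of 30 bases below run 5′ to 3′ on the gene's strand, with the CHR core in capitals. They come from genes whose values are described in full further on. Coordinates are chr10:60778453-60778482 (+) for CDK1, chr5:69167108-69167137 (+) for CCNB1, chr16:23678848-23678877 (+) for PLK1, chr2:26786026-26786055 (+) for CENPA, chr11:28108149-28108178 (-) for KIF18A, chr1:43358904-43358933 (+) for CDC20 and chr5:138179059-138179088 (+) for KIF20A.
CDK1: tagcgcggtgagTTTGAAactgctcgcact
CCNB1: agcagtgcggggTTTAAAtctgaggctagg
PLK1: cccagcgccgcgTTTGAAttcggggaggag
CENPA: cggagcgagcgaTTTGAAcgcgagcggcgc
KIF18A: aagtggcttgggTTTGAAtattgtggttga
CDC20: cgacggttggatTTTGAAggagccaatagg
KIF20A: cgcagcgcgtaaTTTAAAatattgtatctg

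In these pieces the core lay 13 (CDK1), 30 (CCNB1), 29 (PLK1), 18 (CENPA), 10 (KIF18A), 65 (CDC20) and 41 (KIF20A) bases before the RefSeq start. CDK1 has another RefSeq start, which lies upstream of its piece. GENCODE exons covered all 120 bases before the start of CCNB1, PLK1 and KIF18A, and 114 of the 120 for KIF20A. They covered 59 for CENPA and 26 for CDC20. CCNB1 and KIF20A carried TTTAAA and the other 5 carried TTTGAA. Over all 22 windows with such a core within 100 bases before the start, the distance ran from 10 to 84 bases with a median of 29.

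Longer stretches are shown for MKI67 and CENPF, which had 2 of the 5 largest falls in lung-recovered cells and no GENCODE exon in the 120 bases before the start. They lie at chr10:128126424-128126543 (-) and chr1:214603075-214603194 (+), and capitals mark TTTGAA or TTTAAA and CCAAT on either strand (CCAAT on the other strand reads ATTGG).
MKI67: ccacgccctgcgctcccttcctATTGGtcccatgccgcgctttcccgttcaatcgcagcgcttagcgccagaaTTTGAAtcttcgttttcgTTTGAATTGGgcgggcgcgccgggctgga
CENPF: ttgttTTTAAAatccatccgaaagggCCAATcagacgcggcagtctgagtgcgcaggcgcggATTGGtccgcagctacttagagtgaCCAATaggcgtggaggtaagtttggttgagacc

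MKI67 held 2 copies of TTTGAA, the copy nearer the start overlapping an ATTGG. CENPF held 1 TTTAAA, over 100 bases before the start, and CCAAT or ATTGG repeated after it. On either strand anywhere in the window, TTTGAA was found in 28 of 47 windows of these genes (59.6%) and in 15.2% of all 35116 windows. TTTAAA was found in 34.0% and 12.2%, and CCAAT in 76.6% and 34.6%. The CHR core within 100 bases before the start was found in 22 of 47 windows (46.8%) against 8.24% of all windows, and together with CCAAT in that stretch in 18 of 47 (38.3%) against 1.59%. A match is a string of letters, not a measured binding site. Of 21 genes with a CHR core in that stretch, 16 rose and 0 fell from ITGB4-high to ITGB4-low and 17 fell from there to lung-recovered cells. Of 17 with a window but no core there, 11 rose and 1 fell, and 13 fell in lung-recovered cells. Anywhere in the window, however, 32 of the 38 genes held a core, so many of the 17 held it outside that stretch. CDCA3, KIF2C and NDC80, for instance, held it across the start itself. Over all genes tested, 28.6% were called higher and 27.6% lower in the first comparison and 15.4% lower in the second. The difference between genes with and without the core in that stretch was not tested.

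ITGB4-low clone 1 cells held more RNA of most G2 and mitosis genes than ITGB4-high cells, and lung-recovered cells less than the clone they came from. Summed over the 46 genes, the ITGB4-high libraries held 7472 and 7856 CPM. Levels were 8775, 8920 and 9016 CPM in the ITGB4-low libraries and 7857, 7831 and 7668 CPM in the lung-recovered libraries. The ITGB4-low libraries lay above all others. Lung-recovered replicates 1 and 2 stood close to the higher ITGB4-high library, and replicate 3 lay between the 2 ITGB4-high libraries.

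A gene is called higher or lower where its adjusted p, from edgeR's quasi-likelihood test with Benjamini-Hochberg adjustment over all genes tested, was under 0.05. From ITGB4-high to ITGB4-low, 32 of the 46 genes rose, 3 fell and 11 were not called. Over all genes tested, 56.2% were called in that comparison, 28.6% higher and 27.6% lower. The median log2 fold change was 0.22, against 0.00 over all genes tested, and the genes ranged from -0.21 to 1.09. AURKB alone changed by 2-fold or more, as 13.1% of all genes did. In 33 genes every ITGB4-low library lay above every ITGB4-high library and in 3 below, where 34.8% and 33.9% of all genes did so. Between lung-recovered and ITGB4-low cells, 37 of the 46 fell, 0 rose and 9 were not called, where 30.1% of all genes were called, 14.7% higher and 15.4% lower. The median log2 fold change was -0.18, against 0.00 over all genes, the values ran from -0.43 to 0.00, and 0 reached 2-fold, as 5.51% of all genes did. Falls were frequent and small. In 39 genes every lung-recovered library lay below every ITGB4-low library, and in 0 above, against 21.6% of all genes each way. Between lung-recovered and ITGB4-high cells, 15 rose, 8 fell and 23 were not called, with a median of 0.06. The background there was 51.2% called, 26.2% higher and 25.0% lower, and 10.6% by 2-fold or more, where 0 of the 46 did so. The groups were separate with lung-recovered cells above in 19 genes and below in 9, against 34.2% and 32.6% of all genes. Neither direction stood far from the background.

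**Figure D1:**
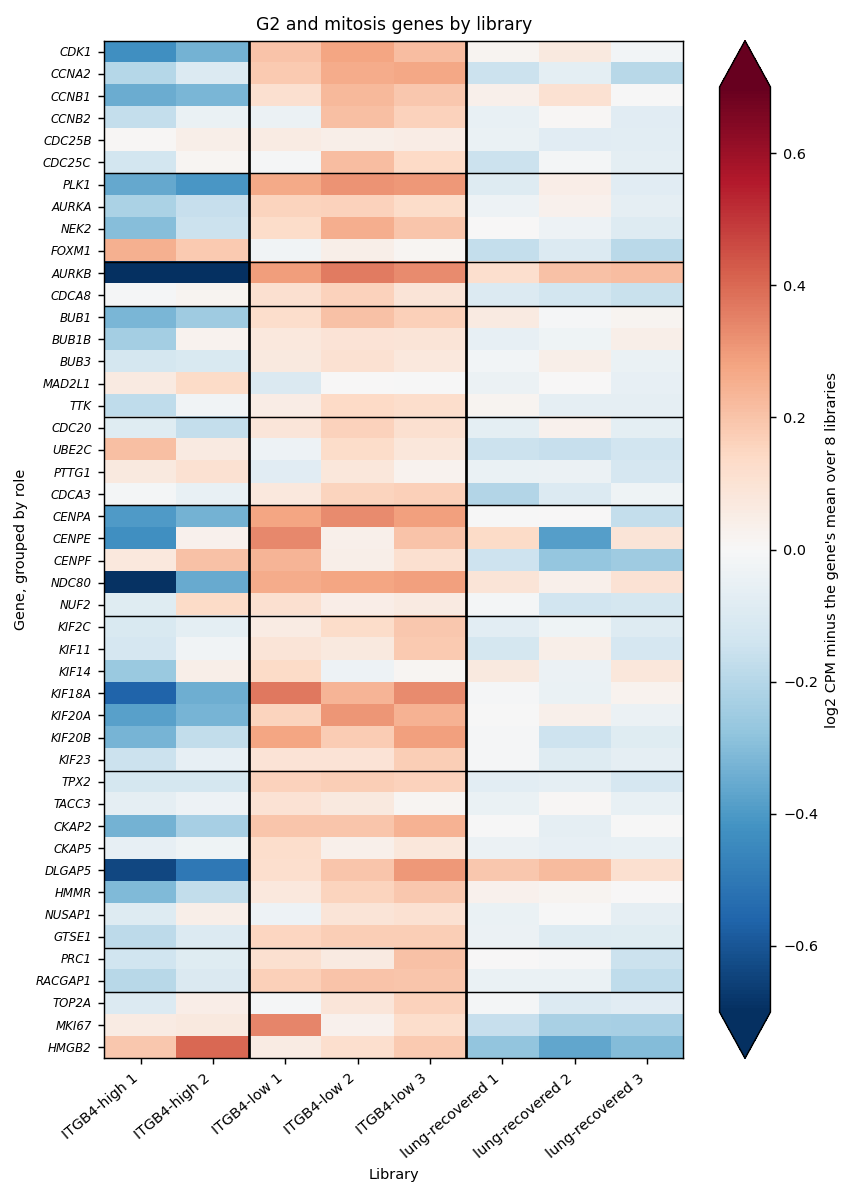
Level of each of the 46 genes (rows, grouped by role) in each of the 8 libraries (columns), as log2 CPM minus the gene's own mean over the 8 libraries. Red is above and blue below that mean, and the colour scale saturates at its ends. The 3 ITGB4-low columns are red for most genes, FOXM1, MAD2L1 and HMGB2 are reddest in ITGB4-high, and lung-recovered columns are mostly pale or blue.

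**Figure D2:**
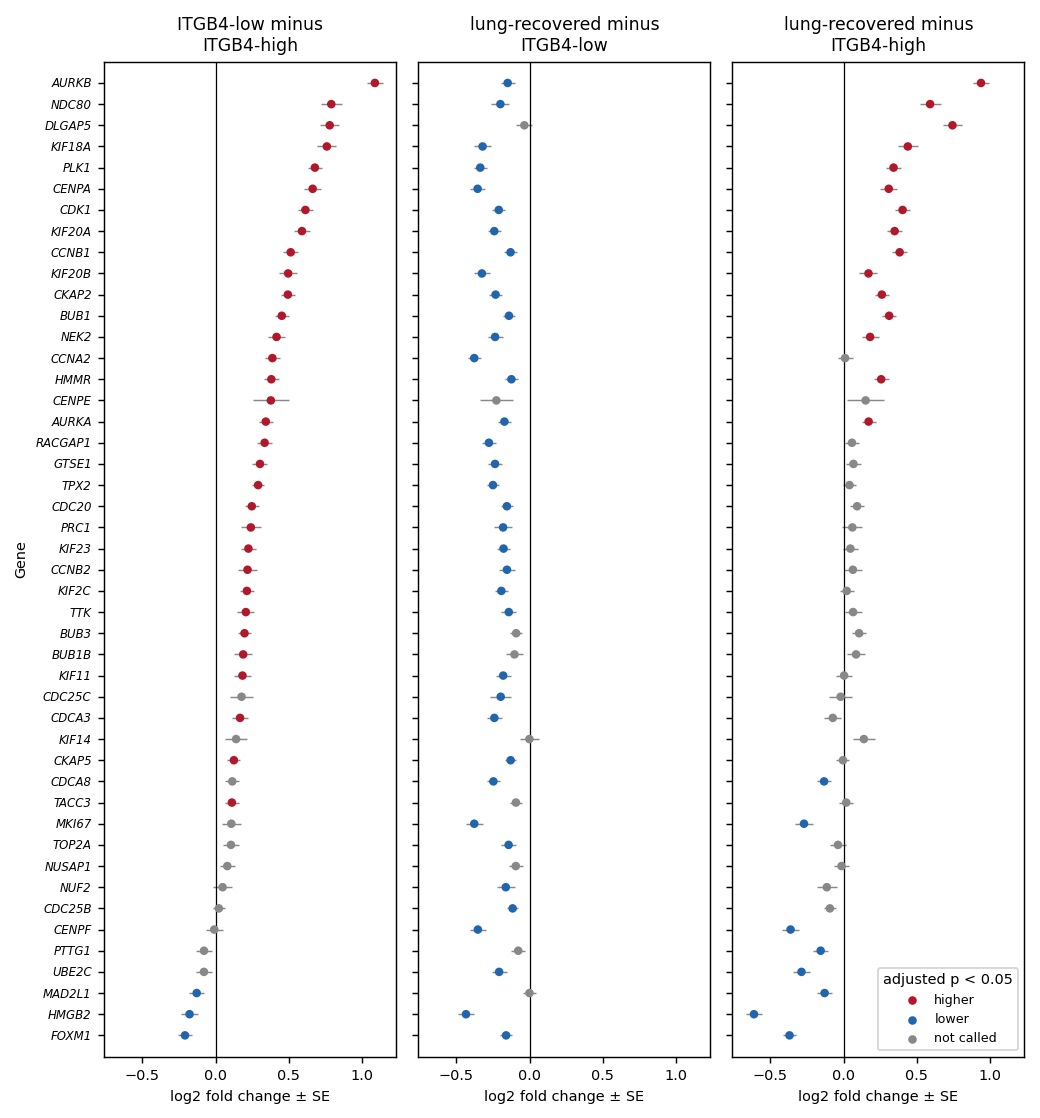
Log2 fold change (points) with its standard error (lines) for each of the 46 genes in the 3 comparisons, in the order of the first. Red points were called higher, blue points lower and grey points were not called: 32 and 3, then 0 and 37, then 15 and 8 genes.

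Among CDK1, its cyclins and the phosphatases that activate it, 4 of 6 genes rose in ITGB4-low and 6 of 6 fell in lung-recovered cells. CDK1 (ENSG00000170312, chr10:60778331-60794852) encodes the kinase that starts mitosis. Its level was 89.6 and 95.8 CPM in ITGB4-high, 139, 146 and 140.3 in ITGB4-low, and 122, 127 and 119 in lung-recovered libraries. The 3 groups did not overlap, with ITGB4-low highest and ITGB4-high lowest. The log2 fold change was 0.61 (SE 0.05, adjusted p = 3.81e-09) from ITGB4-high to ITGB4-low and -0.21 (SE 0.04, adjusted p = 0.00114) from there to lung-recovered cells. Lung-recovered cells stayed above ITGB4-high by 0.40 (SE 0.05, adjusted p = 1.65e-06).

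CCNB1 (ENSG00000134057, chr5:69167010-69178245) encodes cyclin B1, the main mitotic partner of CDK1. It stood at 287 and 292 CPM in ITGB4-high, 394, 427 and 416 in ITGB4-low, and 375, 392 and 365 in lung-recovered libraries. The rise in ITGB4-low was 0.51 (SE 0.05, adjusted p = 2.98e-08) on the log2 scale. Lung-recovered cells stayed 0.38 (SE 0.05, adjusted p = 1.98e-06) above ITGB4-high. The fall of 0.13 (SE 0.04, adjusted p = 0.0286) from ITGB4-low was on the edge of the call and ended without ITGB4-low replicate 2 or 3 or lung-recovered replicate 1 or 3 (adjusted p 0.0816 to 0.153).

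CCNA2 (ENSG00000145386, chr4:121816444-121823933), the cyclin A of S phase and G2, took another course. Its libraries read 163 and 175 CPM in ITGB4-high, 212, 224 and 226 in ITGB4-low, and 169, 178 and 163 in lung-recovered cells. It rose by 0.39 (SE 0.05, adjusted p = 2.61e-06) and fell by 0.38 (SE 0.05, adjusted p = 2.37e-06), one of the 5 largest falls among the 46. Lung-recovered and ITGB4-high libraries overlapped, with a log2 difference of 0.01 (SE 0.05, adjusted p = 0.885).

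The second B cyclin, CCNB2, rose by 0.22 (SE 0.06, adjusted p = 0.00576) and differed by -0.15 (adjusted p = 0.0431) in lung-recovered cells, where its libraries overlapped those of ITGB4-low. The rise ended without ITGB4-high replicate 1 (adjusted p = 0.113), and the fall without ITGB4-low replicate 2 or 3 or lung-recovered replicate 1 or 3 (0.125 to 0.212). CDC25B, which activates CDK1 at the centrosome, was level between ITGB4-high (414 ± 6.79 CPM, SD, n = 2) and ITGB4-low (421 ± 2.12, n = 3) and lower in lung-recovered cells (388 ± 5.04, n = 3). CDC25C, its relative, differed by 0.18 (adjusted p = 0.0614, or 0.0482 without ITGB4-high replicate 2 and 0.0131 without ITGB4-low replicate 1) and then by -0.20 (adjusted p = 0.0418). The lung calls of CDC25B (adjusted p = 0.0282) and CDC25C were edge calls. That of CDC25B ended without any 1 of ITGB4-low replicates 2 and 3 and the 3 lung-recovered libraries (0.0663 to 0.0989), that of CDC25C without ITGB4-low replicate 2 or 3 or lung-recovered replicate 1 or 3 (0.0939 to 0.188). Against ITGB4-high, CDC25B was also close to the threshold (adjusted p = 0.078).

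The mitotic kinases PLK1, AURKA and NEK2 rose in ITGB4-low and fell in lung-recovered cells, while the transcription factor FOXM1 fell at both steps. PLK1 (ENSG00000166851, chr16:23677656-23690367), the Polo kinase needed for centrosome maturation and mitotic entry, was at 168 and 162 CPM in ITGB4-high. It was at 259, 268 and 265 CPM in ITGB4-low and at 202, 222 and 204 in lung-recovered libraries. No groups overlapped. The rise was 0.68 (SE 0.05, adjusted p = 6.82e-10) and the later fall 0.34 (SE 0.04, adjusted p = 5.76e-06), leaving lung-recovered cells 0.34 (SE 0.05, adjusted p = 1.01e-05) above ITGB4-high.

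AURKA (ENSG00000087586, chr20:56369389-56392337), the Aurora kinase of spindle poles, measured 118 and 123 CPM in ITGB4-high, 154, 154 and 151 in ITGB4-low, and 135, 141 and 132 in lung-recovered cells. It rose by 0.34 (SE 0.05, adjusted p = 4.49e-06) and fell by 0.17 (SE 0.04, adjusted p = 0.00406), with lung-recovered libraries between the other groups. NEK2, a kinase that separates centrosomes, rose from 67.3 ± 4.99 (n = 2) to 89.8 ± 3.91 CPM (n = 3) and fell to 76.3 ± 2.47 (n = 3). Against ITGB4-high, lung-recovered cells had more AURKA (0.17, adjusted p = 0.00523) and NEK2 (0.18, adjusted p = 0.0129). The first call ended without ITGB4-high replicate 1 (adjusted p = 0.0721), the second without that library or lung-recovered replicate 1 (0.233 and 0.0528).

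FOXM1 (ENSG00000111206, chr12:2857681-2877155) encodes a transcription factor that switches on many of the other genes in G2. It ran the other way from most of them in the first comparison: 231 and 222 CPM in ITGB4-high, 191, 199.99 and 196 in ITGB4-low, and 173, 182 and 171 in lung-recovered cells. The groups did not overlap and descended in that order. It fell by 0.21 (SE 0.05, adjusted p = 0.000757), then by 0.16 (SE 0.04, adjusted p = 0.00657), and was 0.37 lower in lung-recovered than in ITGB4-high cells (log2 fold change -0.37, SE 0.05, adjusted p = 1.62e-06).

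AURKB (ENSG00000178999, chr17:8204733-8210600), the catalytic kinase of the chromosomal passenger complex that corrects faulty kinetochore attachments, had the largest rise of the 46. Its libraries read 34.8 and 35.6 CPM in ITGB4-high, 72.8, 76.5 and 74.8 in ITGB4-low, and 64.4, 68.6 and 69.0 in lung-recovered cells. The rise was 1.09 (SE 0.06, adjusted p = 2.85e-12), and lung-recovered cells kept a difference of 0.94 (SE 0.06, adjusted p = 4.15e-11) to ITGB4-high. Genes that share its 10 Mb stretch of chromosome 17 and are not among the 46 had a median of 0.75 in the first comparison and 0.80 in the other. The fall of 0.15 (SE 0.05, adjusted p = 0.0212) between ITGB4-low and lung-recovered cells was an edge call and ended without ITGB4-low replicate 2 or 3 or lung-recovered replicate 1 (adjusted p 0.0551 to 0.139).

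CDCA8, which encodes the passenger subunit borealin, did not follow its partner. It was at 92.1 ± 1.22 CPM (n = 2) in ITGB4-high, 99.7 ± 2.44 (n = 3) in ITGB4-low and 84.0 ± 1.82 (n = 3) in lung-recovered cells. The first difference just missed the threshold (0.11, adjusted p = 0.0514, or 0.0486 without ITGB4-low replicate 1), and the fall of 0.25 (SE 0.04, adjusted p = 0.000191) passed it. Lung-recovered cells also had less than ITGB4-high by an edge call (-0.13, adjusted p = 0.0272) that ended without ITGB4-high replicate 2 or lung-recovered replicate 2 or 3 (0.0532 to 0.102).

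**Figure D3:**
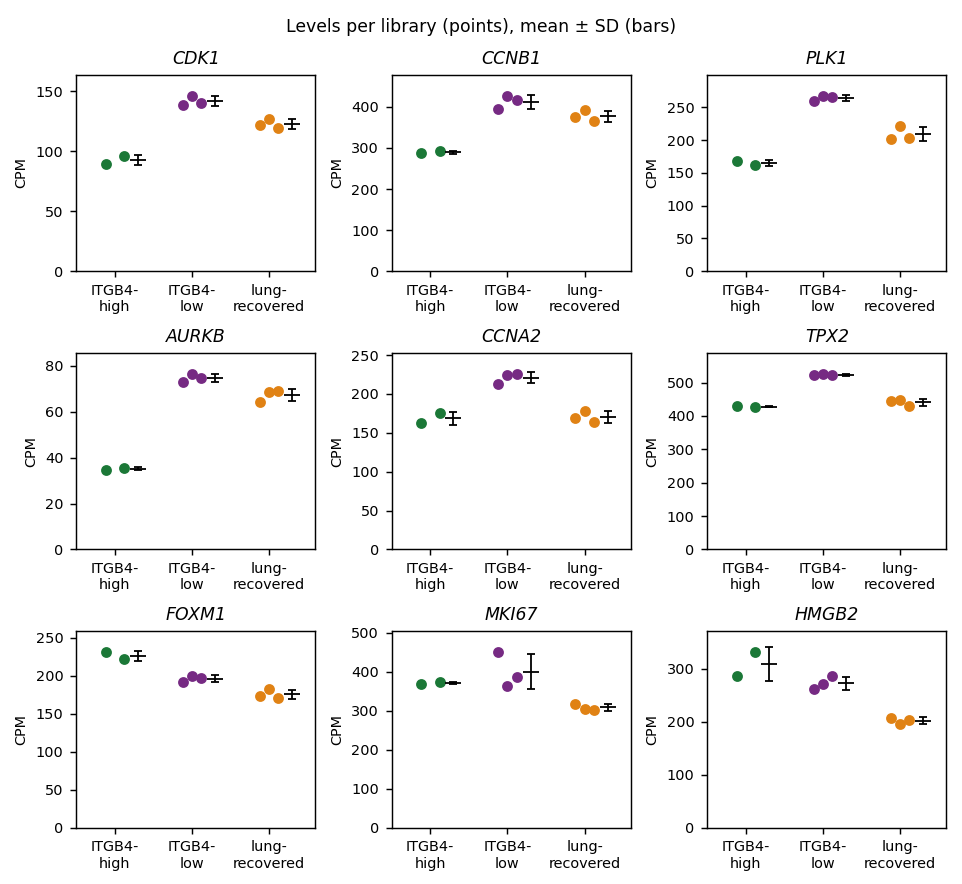
CPM of 9 of the genes in each library (points) with the mean and SD of each group (bars), on axes that start at 0. CDK1, CCNB1, PLK1 and AURKB are highest in ITGB4-low with lung-recovered libraries above ITGB4-high, CCNA2 and TPX2 in lung-recovered cells lie near ITGB4-high, and FOXM1, MKI67 and HMGB2 are lowest in lung-recovered cells.

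Of the 5 spindle assembly checkpoint genes, 4 rose and 1 fell in ITGB4-low, and 2 fell in lung-recovered cells. BUB1, a checkpoint kinase at the kinetochore, rose by 0.45 on the log2 scale, from 109 ± 3.86 (n = 2) to 149 ± 4.45 CPM (n = 3) (SE 0.05, adjusted p = 1.6e-07). It stood at 135 ± 3.39 (n = 3) in lung-recovered cells, above ITGB4-high (0.31, adjusted p = 2.3e-05) and below ITGB4-low (-0.14, adjusted p = 0.0178). The last call ended without ITGB4-low replicate 2 or lung-recovered replicate 2 or 3 (0.0644 to 0.0837). BUB3, which anchors the BUB kinases, rose by 0.20 (adjusted p = 0.000945), with values near the threshold in lung-recovered cells against ITGB4-low (-0.09, adjusted p = 0.0956) and ITGB4-high (0.11, adjusted p = 0.0564).

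TTK, the checkpoint kinase also called MPS1, rose by 0.21 (adjusted p = 0.00482) and BUB1B, which encodes BUBR1 of the mitotic checkpoint complex, by 0.19 (adjusted p = 0.0144). Both rises ended without ITGB4-high replicate 1 (adjusted p = 0.13 for TTK and 0.48 for BUB1B). The fall of TTK in lung-recovered cells (-0.14, adjusted p = 0.0449) was an edge call that ended without any 1 of ITGB4-low replicates 2 and 3 and the 3 lung-recovered libraries (0.0508 to 0.151). BUB1B was not called there (-0.10, adjusted p = 0.178).

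MAD2L1 encodes MAD2, which binds CDC20 while kinetochores are unattached. It was lower in ITGB4-low, with 121 and 127 CPM in ITGB4-high, 108, 116 and 116 in ITGB4-low, and 113, 116 and 111 in lung-recovered cells. Both dish-grown ITGB4-high libraries lay above all others. The differences to ITGB4-high, -0.13 (SE 0.05, adjusted p = 0.0335) for ITGB4-low and -0.13 (SE 0.05, adjusted p = 0.0352) for lung-recovered cells, were edge calls. The first ended without ITGB4-high replicate 2 or ITGB4-low replicate 1 (0.175 and 0.0946), the second without ITGB4-high replicate 2 or lung-recovered replicate 1 or 3 (0.0988 to 0.186).

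Genes that act with the anaphase-promoting complex were mixed. CDC20 (ENSG00000117399, chr1:43358955-43363203), the complex's activator in mitosis and the checkpoint's target, measured 331 and 313 CPM in ITGB4-high, 372, 394 and 381 in ITGB4-low, and 336, 359 and 335 in lung-recovered cells. The rise was 0.25 (SE 0.05, adjusted p = 0.000241). The fall was 0.15 (SE 0.04, adjusted p = 0.0103) and ended without ITGB4-low replicate 2 or lung-recovered replicate 1 or 3 (0.0631 to 0.0752). Per kilobase of exon, a scale on which genes can be compared, CDC20 had the highest mean level of the 46 in ITGB4-low cells, 188 CPM per kb. It was followed by TOP2A (163), CCNB1 (161) and TPX2 (145), and PRC1 had the lowest (6.76). Lengths pool all GENCODE exons, and PRC1 is overlapped on its strand by another gene, so its rank is less certain.

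UBE2C, the ubiquitin-conjugating enzyme of the complex, measured 129.8 and 117 CPM in ITGB4-high, 109, 123 and 119 in ITGB4-low, and 101, 100.4 and 102 in lung-recovered cells. Dish-grown groups overlapped (-0.08, adjusted p = 0.238, or 0.0465 without ITGB4-high replicate 2), and lung-recovered libraries lay below both. Its log2 fold change was -0.21 (SE 0.05, adjusted p = 0.00369) against ITGB4-low and -0.29 (SE 0.06, adjusted p = 0.000231) against ITGB4-high. PTTG1, which encodes securin, the inhibitor of separase, was called only between lung-recovered and ITGB4-high cells (-0.16, SE 0.05, adjusted p = 0.017), a call that ended without ITGB4-high replicate 2 or lung-recovered replicate 3 (0.0803 and 0.0827). CDCA3, a substrate of the complex, rose by 0.17 (adjusted p = 0.0184) and fell by 0.24 (adjusted p = 0.00132). The rise ended without either ITGB4-high library or ITGB4-low replicate 2 or 3 (0.0513 to 0.119).

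At centromeres and kinetochores, 3 of 5 genes rose in ITGB4-low and 4 of 5 fell in lung-recovered cells. CENPA, the histone H3 variant that marks centromeres, had 57.3 and 59.8 CPM in ITGB4-high, 91.1, 94.7 and 92.0 in ITGB4-low, and 75.1, 75.5 and 67.1 in lung-recovered cells. Lung-recovered libraries sat between the dish-grown groups. It rose by 0.66 (SE 0.06, adjusted p = 7.47e-09), fell by 0.35 (SE 0.05, adjusted p = 1.75e-05) and remained 0.31 (SE 0.06, adjusted p = 0.000165) above ITGB4-high.

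NDC80, which encodes the microtubule-binding subunit of the outer kinetochore, had the second largest rise: 41.0 and 51.9 CPM in ITGB4-high, 79.6, 80.3 and 81.0 in ITGB4-low, and 70.5, 68.0 and 71.2 in lung-recovered cells. The log2 fold change was 0.79 (SE 0.07, adjusted p = 1.29e-08) for ITGB4-low and 0.59 (SE 0.07, adjusted p = 9.63e-07) for lung-recovered cells, both against ITGB4-high. Its neighbours on chromosome 18 had medians of 0.37 and 0.34. The fall of 0.20 (SE 0.06, adjusted p = 0.0185) from ITGB4-low ended without ITGB4-low replicate 3 or lung-recovered replicate 1 or 2 (0.0519 to 0.0639). NUF2, its partner in the same complex, was level between dish-grown groups (0.05, adjusted p = 0.56). Its edge call in lung-recovered cells (-0.16, adjusted p = 0.0484) ended without any 1 of the 3 ITGB4-low libraries or lung-recovered replicate 2 or 3 (0.0688 to 0.159).

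CENPF, a large outer kinetochore protein that builds up in G2, was flat in dishes and lower after the lung. It measured 264 and 288 CPM in ITGB4-high, 296, 257 and 271 in ITGB4-low, and 226, 208 and 211 in lung-recovered cells. Dish-grown groups overlapped (-0.01, adjusted p = 0.908), while every lung-recovered library was below every dish-grown one. The log2 fold change was -0.35 (SE 0.05, adjusted p = 2.97e-05) against ITGB4-low and -0.36 (SE 0.06, adjusted p = 3.14e-05) against ITGB4-high. CENPE, the kinetochore kinesin, varied most between replicates, with 61.3 and 84.4, then 104, 84.7 and 94.8, then 90.7, 63.2 and 87.9 CPM. Its rise (0.38, SE 0.12, adjusted p = 0.0148) ended without ITGB4-high replicate 1 (adjusted p = 0.377), and in lung-recovered cells it was not called (-0.23, adjusted p = 0.137).

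Of the kinesin motors, 6 of 7 rose in ITGB4-low and 6 of 7 fell in lung-recovered cells. KIF18A, which damps chromosome movements at the metaphase plate, measured 36.7 and 42.8 CPM in ITGB4-high, 69.8, 63.7 and 68.0 in ITGB4-low, and 53.8, 52.4 and 55.1 in lung-recovered cells. The groups were separate. It rose by 0.76 (SE 0.07, adjusted p = 6.94e-09), fell by 0.32 (SE 0.06, adjusted p = 0.000208), and lung-recovered cells stayed 0.44 (SE 0.07, adjusted p = 1.48e-05) above ITGB4-high. KIF20A, a motor of the central spindle needed for cytokinesis, measured 95.8 and 99.4 CPM in ITGB4-high, 139, 154 and 147 in ITGB4-low, and 124, 128 and 121 in lung-recovered cells, again without overlap. It rose by 0.59 (SE 0.05, adjusted p = 1.07e-08) and fell by 0.24 (SE 0.05, adjusted p = 0.000441). KIF20B, its relative, rose by 0.49 (adjusted p = 9.41e-07) and fell by 0.32 (adjusted p = 0.000102).

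KIF23, part of the centralspindlin complex, rose by 0.22 (adjusted p = 0.000625) and fell by 0.18 (adjusted p = 0.004). KIF2C, a microtubule depolymerase at centromeres, rose by 0.21 (adjusted p = 0.000974) and fell by 0.19 (adjusted p = 0.00212). KIF11, the motor that pushes spindle poles apart, rose by 0.18 (adjusted p = 0.00937) and fell by 0.18 (adjusted p = 0.0103). For KIF11 the rise ended without ITGB4-high replicate 1 (0.139) and the fall without ITGB4-low replicate 3 or lung-recovered replicate 1 or 3 (0.067 to 0.0783). KIF14, a cytokinesis motor, was called in no comparison (0.14, adjusted p = 0.113, for ITGB4-low against ITGB4-high). Without ITGB4-high replicate 2 it was higher than in ITGB4-high by 0.29 in both ITGB4-low and lung-recovered cells (adjusted p = 0.00357 and 0.00411). Above ITGB4-high, lung-recovered cells kept KIF18A, KIF20A (0.35, adjusted p = 1.47e-05) and KIF20B, the last by an edge call (0.17, adjusted p = 0.0259) that ended without ITGB4-high replicate 1 or lung-recovered replicate 1 or 3 (0.0519 to 0.335).

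Of the 8 spindle microtubule-associated proteins, 7 rose in ITGB4-low and 5 fell in lung-recovered cells. DLGAP5, which stabilises kinetochore fibres, measured 44.7 and 49.2 CPM in ITGB4-high, 75.4, 79.8 and 86.0 in ITGB4-low, and 79.4, 81.1 and 75.3 in lung-recovered cells. Lung-recovered and ITGB4-low libraries overlapped, both well above ITGB4-high. The rise was 0.78 (SE 0.06, adjusted p = 2.98e-09), the difference in lung-recovered cells against ITGB4-low -0.04 (SE 0.05, adjusted p = 0.676) and that against ITGB4-high 0.74 (SE 0.06, adjusted p = 8.15e-09).

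TPX2, the activator of Aurora A at the spindle, rose from 428 ± 0.346 (n = 2) to 523 ± 2.38 CPM (n = 3) and fell to 440.3 ± 9.12 (n = 3). Those are log2 fold changes of 0.29 (SE 0.04, adjusted p = 1.13e-05) and -0.25 (SE 0.04, adjusted p = 4.63e-05). GTSE1, a microtubule-binding protein, rose by 0.30 (adjusted p = 4.44e-05) and fell by 0.24 (adjusted p = 0.000486). CKAP2, a microtubule-stabilising protein, rose by 0.49 (adjusted p = 3.44e-08), beside a median of 0.51 for its neighbours on chromosome 13, and fell by 0.23 (adjusted p = 0.00026).

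HMMR, a spindle pole protein, rose by 0.38 (adjusted p = 3.29e-06). Its fall was an edge call (-0.12, adjusted p = 0.0471) that ended without any 1 of ITGB4-low replicates 2 and 3 and the 3 lung-recovered libraries (0.0887 to 0.175). CKAP5, a microtubule polymerase, rose by 0.12 (adjusted p = 0.022, on the edge) and fell by 0.13 (adjusted p = 0.018). The rise ended without ITGB4-high replicate 1 (0.132) and the fall without lung-recovered replicate 1 or 3 (0.0636 and 0.0659). TACC3, its partner on kinetochore fibres, was an edge call in ITGB4-low (0.11, adjusted p = 0.0494) that ended without either ITGB4-high library or ITGB4-low replicate 1 or 2 (0.0969 to 0.223). NUSAP1, a spindle bundling protein, was not called with all libraries (0.08, adjusted p = 0.208, in ITGB4-low). Without ITGB4-low replicate 1 it was called higher in ITGB4-low (adjusted p = 0.0317) and lower in lung-recovered cells (adjusted p = 0.0204).

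Both central spindle genes rose and fell. RACGAP1, the centralspindlin partner of KIF23, went from 152 ± 6.96 (n = 2) to 192 ± 2.36 (n = 3) and 158 ± 7.99 CPM (n = 3), with log2 fold changes of 0.33 (SE 0.05, adjusted p = 1.32e-05) and -0.28 (SE 0.05, adjusted p = 8.34e-05). PRC1, which bundles antiparallel microtubules at the midzone, rose by 0.24 (adjusted p = 0.00526) and fell by 0.18 (adjusted p = 0.0306, on the edge). The rise ended without ITGB4-high replicate 1 (0.0569) and the fall without ITGB4-low replicate 3 or lung-recovered replicate 3 (0.152 and 0.182).

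The 3 mitotic chromatin genes had a different profile: 0 rose in ITGB4-low, and all 3 fell in lung-recovered cells. HMGB2 (ENSG00000164104, chr4:173331695-173335125), a DNA-bending protein abundant in dividing cells, had 286 and 332 CPM in ITGB4-high, 261, 272 and 286 in ITGB4-low, and 207, 196 and 204 in lung-recovered cells. Lung-recovered libraries lay far below both dish-grown groups. The fall from ITGB4-low, 0.43 (SE 0.05, adjusted p = 1.91e-06), was the largest of the 46 and sits beside a regional median of -0.29 for its neighbours on chromosome 4. Against ITGB4-high it was -0.61 (SE 0.06, adjusted p = 2.82e-08). The smaller difference between dish-grown groups (-0.18, SE 0.06, adjusted p = 0.0125) ended without ITGB4-high replicate 2 (adjusted p = 0.305).

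MKI67 (ENSG00000148773, chr10:128096659-128126385) encodes Ki-67, the coat protein of mitotic chromosomes used in pathology to mark cycling cells. Its libraries read 369 and 373 CPM in ITGB4-high, 450.1, 363 and 387 in ITGB4-low, and 318, 304 and 302 in lung-recovered cells. Dish-grown groups overlapped because ITGB4-low replicate 2 lay below ITGB4-high, and the difference was not called (0.11, SE 0.06, adjusted p = 0.167). Without that library it was 0.16 (adjusted p = 0.0351). All 3 lung-recovered libraries lay below every dish-grown one, with log2 fold changes of -0.38 (SE 0.06, adjusted p = 4.19e-05) against ITGB4-low and -0.27 (SE 0.06, adjusted p = 0.00157) against ITGB4-high. MKI67 has one of the longest exon totals of the 46, and the 2767 tested genes with at least 8000 bases of exon deviated from their group mean by a median of 0.03 in ITGB4-low replicate 1 and -0.03 in replicate 2.

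TOP2A (ENSG00000131747, chr17:40388516-40417950), the topoisomerase that untangles chromosomes, had 928 and 1023 CPM in ITGB4-high, 985, 1054 and 1109 in ITGB4-low, and 982, 929 and 939 in lung-recovered cells. Its groups in dishes overlapped (0.10, SE 0.06, adjusted p = 0.115). Without ITGB4-high replicate 2 or ITGB4-low replicate 1 that difference was called (adjusted p 0.0301 and 0.0116). The edge call in lung-recovered cells (-0.14, SE 0.05, adjusted p = 0.0343) ended without ITGB4-low replicate 2 or 3 or lung-recovered replicate 2 or 3 (0.0813 to 0.184).

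Across the 3 comparisons, 14 genes were above ITGB4-high in both other groups and lower in lung-recovered than in ITGB4-low cells: CDK1, CCNB1, PLK1, AURKA, NEK2, AURKB, BUB1, CENPA, NDC80, KIF18A, KIF20A, KIF20B, CKAP2 and HMMR. A further 13 were higher in ITGB4-low, lower in lung-recovered cells and not called between lung-recovered and ITGB4-high cells. They were CCNA2, CCNB2, TTK, CDC20, CDCA3, KIF2C, KIF11, KIF23, TPX2, CKAP5, GTSE1, PRC1 and RACGAP1. FOXM1 and HMGB2 were called lower at each step. CDCA8, UBE2C, CENPF and MKI67 were called only downward and only in lung-recovered cells, against both dish-grown groups. A missing call does not show that the levels were alike, and which of these patterns a gene takes was not itself tested. As given above, CCNB1, AURKA, NEK2, AURKB, BUB1, NDC80, KIF20B and HMMR of the first 14 each lost a call of the pattern on leaving out 1 library. Genes of the other patterns did so too, among them CCNB2, TTK, CDCA8 and HMGB2.

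A clone can differ in chromosome copy number, so each gene was set beside the median log2 fold change of the other genes in its 10 Mb stretch. Of the 32 genes that rose in ITGB4-low, 31 stayed above their region and CKAP2 did not. Their median moved from 0.36 to 0.30 after subtraction. Regional medians over 0.2 were found around CDK1 (0.27), KIF20B (0.22), NDC80 (0.37), CKAP2 (0.51) and AURKB (0.75). AURKB stood 0.34 and NDC80 0.42 above their regions. All 37 genes that fell in lung-recovered cells stayed below their regions, with a median of -0.20 before and -0.21 after. Of the 15 genes higher in lung-recovered than in ITGB4-high cells, 13 stayed above their region, and KIF20B and CKAP2 did not. The 8 lower ones all stayed below. These genes were picked for their calls and most regional medians were small, so such counts were largely set in advance. What part copy number had was not tested.

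Other genes of the cycle were read from lists that share no gene with the 46. Of 66 other G2 and mitosis genes, 33 rose and 12 fell in ITGB4-low (median log2 fold change 0.16), and 1 rose and 32 fell in lung-recovered cells (median -0.14). The shares over all genes tested were 28.6% higher and 27.6% lower, then 14.7% and 15.4%. PIMREG, a mitotic regulator at the metaphase-anaphase transition, rose from 29.5 ± 1.68 (n = 2) to 59.3 ± 6.13 CPM (n = 3) beside a regional median of 0.75 and fell to 46.2 ± 1.56 (n = 3). BORA, which helps Aurora A activate PLK1, rose from 21.4 ± 1.6 (n = 2) to 41.6 ± 0.822 CPM (n = 3). PKMYT1, a kinase that inhibits CDK1, fell by 0.46 (SE 0.05, adjusted p = 2.8e-07), and CDC25A, the phosphatase active from G1 on, by 0.45 (SE 0.06, adjusted p = 2.19e-06). CDC25A was also the gene that rose in lung-recovered cells (0.15, SE 0.05, adjusted p = 0.0439). The spindle protein gene KNSTRN fell there by 0.36 (SE 0.04, adjusted p = 3.37e-06). Against ITGB4-high, 16 of the 66 were higher and 19 lower, near the 26.2% and 25.0% of all genes. The largest of these were BORA (0.72) and PIMREG (0.65) upward, and AURKC (-1.38, under 0.6 CPM in each group) and SKA1 (-0.58) downward.

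S phase genes moved opposite to the G2 and mitosis genes in the first 2 comparisons. Of 53, 8 rose and 27 fell in ITGB4-low (median -0.19), and 25 rose and 0 fell in lung-recovered against ITGB4-low cells (median 0.16). The shares over all genes tested were 28.6% higher and 27.6% lower, then 14.7% and 15.4%. Their summed level was 3352 and 3338 CPM in ITGB4-high, 2911, 2786 and 2858 in ITGB4-low, and 3172, 3332 and 3172 in lung-recovered libraries. PCNA, the replication clamp, was at 97.0 ± 1.4 CPM (n = 2), 50.7 ± 6.57 (n = 3) and 74.1 ± 1.42 (n = 3), a fall of 0.93 and then a rise of 0.54 (SE 0.07 for each, adjusted p = 1.13e-09 and 2.36e-06). UNG, a uracil-DNA glycosylase, fell by 1.37 (SE 0.08, adjusted p = 1.1e-11) and CDT1, which loads the MCM helicase, by 1.19 (SE 0.06, adjusted p = 3.4e-12). MCM6, a helicase subunit, rose by 0.79 (SE 0.07, adjusted p = 5.25e-09) against that direction, and POLE2, a polymerase subunit under 10 CPM, rose in lung-recovered cells by 0.52 (SE 0.13, adjusted p = 0.00406). Between lung-recovered and ITGB4-high cells 12 were higher, led by POLE2 (0.97) and MCM6 (0.91), and 20 lower, led by UNG (-0.92) and E2F1 (-0.86). Of all genes, 26.2% were called higher and 25.0% lower there.

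**Figure D4:**
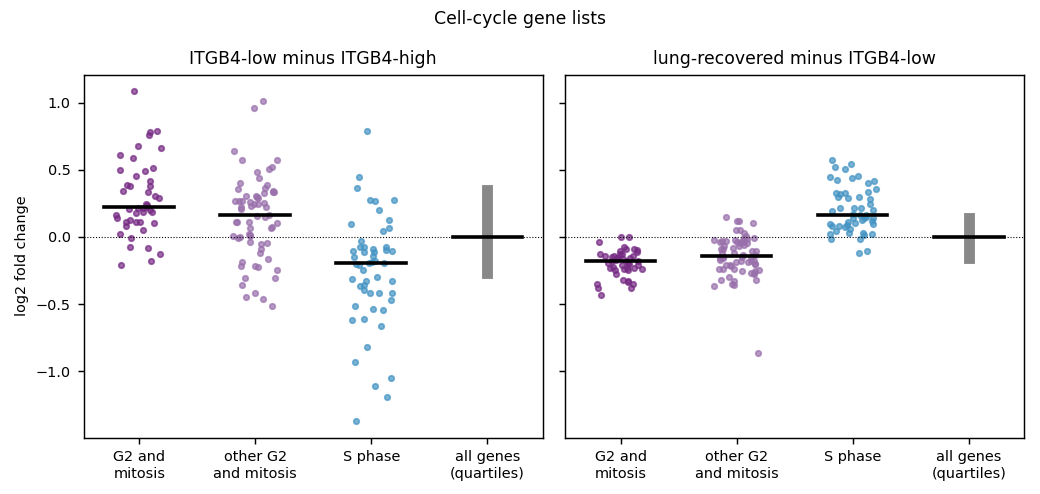
Log2 fold change of each gene (points) in the 46 G2 and mitosis genes, the 66 other G2 and mitosis genes and the 53 S phase genes, with the median as a line, and the quartiles of all genes tested as a grey bar. Medians were 0.22, 0.16 and -0.19 for ITGB4-low minus ITGB4-high and -0.18, -0.14 and 0.16 for lung-recovered minus ITGB4-low. The lowest point in the second panel is AURKC, which was not called there.

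Regulators of these genes were called in both directions. Of 21 genes for MuvB subunits, MYB, E2F and RB family members and NF-Y, 6 rose and 9 fell in ITGB4-low, and 3 rose and 4 fell in lung-recovered cells, where 56.2% and 30.1% of all genes were called, so the second count is near the background. B-MYB (MYBL2) fell at both steps, from 162 ± 4.51 (n = 2) to 139 ± 5.31 (n = 3) and 114 ± 3.61 CPM (n = 3), with log2 fold changes of -0.22 (SE 0.05, adjusted p = 0.000616) and -0.28 (SE 0.04, adjusted p = 6.11e-05). MYBL1, its relative, rose by 0.75 in ITGB4-low and the pocket protein gene RB1 by 0.74, where RB1's region had a median of 0.30. E2F2, an activating E2F, fell by 1.44 and TFDP2, a dimer partner of E2Fs, by 0.82. In lung-recovered cells E2F2 rose by 0.37, the MuvB subunit gene RBBP4 by 0.21, and the repressor E2F7 fell by 0.51. Against ITGB4-high, 3 were higher, among them RB1 (0.64) and MYBL1 (0.48), and 10 lower, among them E2F2 (-1.07) and TFDP2 (-0.98). The shares of all genes there were 26.2% and 25.0%.

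Among CDK inhibitors and genes of G2 arrest, 15 of 19 were tested (not CDKN2A, CDKN2B, GADD45G and RPRM). In ITGB4-low 3 rose and 8 fell, against 28.6% and 27.6% of all genes, and in lung-recovered cells 5 rose and 3 fell, against 14.7% and 15.4%. CDKN1A, which encodes the CDK inhibitor p21, went from 134 ± 4.09 (n = 2) to 66.2 ± 1.4 (n = 3) and back up to 89.6 ± 3.23 CPM (n = 3). Its log2 fold changes were -1.02 (SE 0.05, adjusted p = 1.08e-12) and 0.44 (SE 0.05, adjusted p = 3.76e-07). BTG2, an antiproliferative p53 target, fell by 1.08 and then rose by 0.76, at under 10 CPM. PLK3, a stress-responsive Polo kinase, rose by 0.52 in lung-recovered cells. CDKN1C, the p57 inhibitor, rose by 0.93 in ITGB4-low and the cyclin G gene CCNG2 by 0.84, while CDKN2C, the p18 inhibitor, fell by 0.34 and GADD45B by 0.25 in lung-recovered cells. Against ITGB4-high, 4 were higher, led by CDKN1C (1.09) and CCNG2 (0.64), and 7 lower, led by CDKN1A (-0.58) and SFN (-0.49). The shares of all genes there were 26.2% and 25.0%.

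The anaphase-promoting complex itself had genes called in both directions. Of 19 genes for its subunits and inhibitors, 3 rose and 4 fell in ITGB4-low and 2 rose and 3 fell in lung-recovered cells. Over all genes, 56.2% and 30.1% were called in these comparisons, so the second count is near the background. CDC16 rose by 0.53 beside a regional median of 0.57, ANAPC1 rose by 0.26, ANAPC13 fell by 0.39 and ANAPC16 fell by 0.27 in ITGB4-low. In lung-recovered cells ANAPC4 rose by 0.20 and ANAPC13 by 0.15, and UBE2S, the chain-extending enzyme, fell by 0.27 and FBXO5, the inhibitor EMI1, by 0.23. Leaving out ITGB4-low replicate 1 or 2 or lung-recovered replicate 1 or 3 left 3 of those 5 calls. Against ITGB4-high, 3 were higher, among them CDC16 (0.48) and ANAPC4 (0.32), and 5 lower, among them ANAPC11 (-0.25) and ANAPC16 (-0.25). The shares of all genes there were 26.2% and 25.0%.

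Counts of calls in lung-recovered against ITGB4-low cells depended on single libraries more than those of the first comparison. Without lung-recovered replicate 3, 24 of the 46 genes were called lower, and without ITGB4-low replicate 3, 25. Of the 32 rises from ITGB4-high to ITGB4-low, the fewest, 23, were called without ITGB4-high replicate 1. Over every setting tried and every library left out, 22 of the 37 falls in lung-recovered cells held throughout, as did 23 of the 32 rises and 1 of the 3 falls (FOXM1) from ITGB4-high to ITGB4-low. Another scaling, filter, tool or a fit of 2 groups also ended the lung-recovered calls of CCNB2, CDC25B, CDC25C, TTK, NUF2, HMMR and PRC1 against ITGB4-low, those of MAD2L1, TACC3, CKAP5 and CENPE in ITGB4-low, and those of CDCA8 and MAD2L1 against ITGB4-high (adjusted p 0.0517 to 0.145). In the other direction, 1 or more of these settings called CDC25C and CDCA8 in ITGB4-low and BUB3 and CENPE in lung-recovered cells, CENPE with no filter at an adjusted p of 0.000227 against ITGB4-low. Against ITGB4-high, 5 of the 8 falls were left without ITGB4-high replicate 2 or lung-recovered replicate 3. Opposite-strand neighbours overlap CCNA2, CDC25C, FOXM1, NUF2, KIF18A and KIF20A, a same-strand gene overlaps CENPA and PRC1, and copies elsewhere in the genome resemble CCNB2, AURKA, NEK2, BUB3, CDC20, UBE2C, HMGB2 and others. How reads in such overlaps and copies were counted, and whether strand was used, is not known, so their counts are less certain.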

How the data were processed

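The values are deposited raw counts per Ensembl gene, whole numbers with no normalization by the authors, in 1 column for each of 8 libraries. Per the submitters' processing notes, STAR 2.7.1a and hg38 were used. Per the labels' protocols, the libraries were strand-marked. For the counting program, strand setting and annotation release: not given in the sources used here. Symbols and hg38 coordinates came from GENCODE release 29 (58216 of 58336 identifiers matched), and start sequences from RefSeq, GRCh38.p14.

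Counts of all 8 libraries entered 1 edgeR 4.0.16 fit (R 4.3.3) with a term per group, TMM scaling (factors 0.975 to 1.012) and filterByExpr, which kept 15220 genes with 99.93% of counts. The quasi-likelihood F test was adjusted by Benjamini-Hochberg over all of them, and an adjusted p under 0.05 is a call. The script was checked on simulated counts. SE is the log2 fold change over the square root of F. Levels are TMM-scaled CPM, as mean ± SD over libraries. Totals of 20.41 to 27.22 M put at least 528 counts behind each value of the 46 genes. Counting error is still part of the spread, most so for genes with the lowest counts, such as CDC25C. Replicates of a group differed by more than sampling noise (chi-square over its degrees of freedom from 1.59 to 6.39), and each counted as 1 sample. Groups came from the sample titles.

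The 46 genes and all lists were chosen with earlier results of these data known. Values in every library are given for 10 fixed genes and, per comparison, for up to 5 called genes with the largest rise and 5 with the largest fall. From other lists up to 2 called genes each way are named. Edge calls have an adjusted p of 0.02 to 0.1. Alternatives were RLE and upper-quartile scaling, no filter, a filter of 1 CPM in 3 libraries, DESeq2 1.42.0, limma-voom (limma 3.58.1), fits of 2 groups, a replicate block, and leaving out each library.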

Additional observations from a re-analysis of the deposited data

How the results depend on the processing

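Of the 46 genes, 32 rose from ITGB4-high to ITGB4-low, and 28 to 34 rose under the 8 other settings. The lung-recovered falls against ITGB4-low numbered 37, and 31 to 37 under those settings. Leaving out 1 library gave 23 to 35 rises in the first comparison, 24 to 37 falls in the second, and 12 to 18 rises and 5 to 9 falls against ITGB4-high. Without an ITGB4-high library the one left is assumed to vary like the other groups. For anaphase-promoting complex genes in lung-recovered against ITGB4-low cells, 5 calls became 3 with DESeq2 and 3 to 4 on leaving out 1 library. The cause was not tested. No called value of the 46 genes turned its direction under any of these settings. Of 138 uncalled or called values, 19 changed sign somewhere, all uncalled and no larger than 0.067 (log2) after the change. The median of all genes stayed within 0.03 of 0 under each scaling.

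Whether replicate numbers pair the samples was not settled. Correlations of deviations ran from -0.162 to 0.0459 for same-numbered libraries and from -0.0767 to 0.162 for differently numbered ones. The 2 ITGB4-high libraries have deviations of equal size and opposite sign, so their correlations cannot decide this. With the replicate number as a block, 28 genes rose and 2 fell from ITGB4-high to ITGB4-low, 31 fell in lung-recovered against ITGB4-low cells, and 14 were higher and 6 lower against ITGB4-high.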
